A study of Homo sapiens with 18 samples.

Results

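The response to docosahexaenoic acid (DHA) was measured in MDA-MB-231 cells, an established human triple-negative breast cancer line, in which a hairpin (sh-IGFBP6) lowers the transcript of IGFBP6, an insulin-like growth factor binding protein. Of the 18 libraries, 6 made this comparison: 3 from cells given 200 µM DHA in ethanol together with 0.5% DMSO, and 3 from control cells given the vehicle, 0.5% DMSO and 0.5% ethanol. The labels do not give the ethanol volume that came with DHA. Cells were cultured for 24 h and then treated for 24 h. Other libraries served as references: the same DHA and vehicle treatments in MDA-MB-231 cells with a hairpin against luciferase (sh-LUC), which the labels give as wild type, and sh-IGFBP6 cells given 2.5 µM erastin in DMSO with 0.5% ethanol, each with 3 libraries per group. The labels do not say whether a line grew from 1 clone, or whether the replicates were separate cultures, so the p-values measure the spread between these libraries, which may be technical.

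DHA is a long omega-3 fatty acid whose many double bonds make it easily peroxidised once it is built into membrane phospholipids. Free fatty acids of this kind also bind nuclear receptors of the PPAR family and lower the processing of the SREBP factors that drive sterol and fatty acid synthesis. Peroxidised lipids and the aldehydes made from them modify KEAP1, which releases the transcription factor NRF2 to switch on antioxidant genes. Ferroptosis is a form of cell death driven by iron and lipid peroxides, and erastin brings it about by blocking cystine uptake through system xc-, whose light chain is SLC7A11.

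The hairpin's target was checked before the response. IGFBP6 stood at 0.602, 1.35 and 2.22 CPM (read counts scaled to the effective library size) in the sh-IGFBP6 vehicle libraries and at 20.9, 20.1 and 17.3 CPM in the sh-LUC vehicle libraries, so the lines did not overlap. After DHA it stood at 0.901, 1.16 and 0.753 CPM in sh-IGFBP6, with no call for a change (log2 fold change -0.53 ± 0.50, adjusted p = 0.448). Of 16 listed basal and MDA-MB-231 markers 2, KRT5 and KRT6A, stood at 0 in all 6 libraries. The list summed to 4804–4830 CPM in vehicle and 4285–4410 CPM after DHA. VIM, a mesenchymal filament, stood at 1138 ± 11.8 CPM (SD, n = 3) in vehicle and CD44 at 651 ± 24.2 CPM, while the epithelial cadherin CDH1 stood at 0.146 ± 0.129 CPM and the leukocyte marker PTPRC at 0.100 ± 0.174 CPM. In the 6 libraries the total count ran from 2994716 to 6592609. Across the series it ran from 609936 to 7977429, and the lowest belonged to erastin replicate 3 of sh-IGFBP6, in which mitochondrial ribosomal RNA took 54.4% of counts. That library entered the shared estimate of spread and the comparison with erastin. Several results that rest on it are given with and without it. Counts with library size alone include it unless stated, and many are given only with it.

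DHA changed the level of 5202 of the 15189 genes tested, 34.2%, at a Benjamini-Hochberg adjusted p below 0.05 in the quasi-likelihood test of edgeR, and the words rose and fell below mean that a gene passed it. Of these, 2644 genes (17.4%) rose and 2558 (16.8%) fell. Most changes were small: 3191 of the called genes changed by less than 1.5-fold, while 363 genes (2.39%) rose and 417 (2.75%) fell by at least 2-fold, 780 in all. All 3 DHA libraries lay above all 3 vehicle libraries for 3442 genes (22.7%) and below them for 3235 (21.3%). The near-even split rested on the scaling: 50.8% of calls were rises with TMM factors, 42.7% with upper quartile factors and 33.3% with library size alone, which called 2579 genes (859 rose, 1720 fell). Library size alone without erastin replicate 3 called 5427 genes, of which 35.6% rose. Library size alone also ended the calls of the following genes named below: GPX4, ACSL3, ACSL4, ACSL5, TFRC, DGAT1, HMGCS1, PSAT1, PHGDH, WARS1, AARS1, QARS1, PRDX3, ACO1, MCM7, ORC6, CCND1, HLA-B, LATS2, ERBB2, KCNQ1OT1, RN7SL1, SNHG17, SNHG3, GAS5, SLCO4A1-AS1, PSMD11, CAVIN1 and CDKN1C. With library size alone and erastin replicate 3 also left out, only RN7SL1 of these genes lost its call. RNA of a culture was measured as a whole, so fewer cells that hold a transcript and less of it per cell cannot be told apart.

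**Figure D1:**
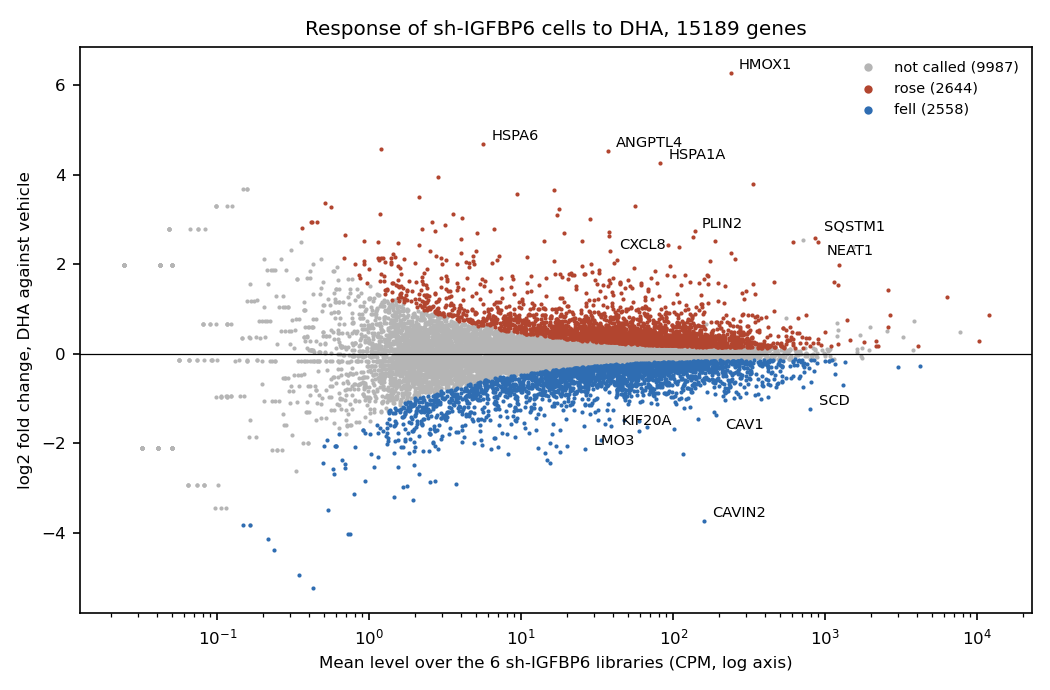
Each point is a gene, with its mean level over the 6 sh-IGFBP6 libraries (CPM, log axis) against its log2 fold change for DHA over vehicle; red points rose and blue points fell at an adjusted p below 0.05. HMOX1 lies highest, at a log2 fold change of 6.28, and CAVIN2 lowest among the well-expressed genes, at -3.73.

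Genes were ranked if called, without overlap, and with a mean of at least 5 CPM over the 6 libraries together. A gene could therefore pass through the group where it was high. HMOX1 led the 12 largest rises. It encodes the enzyme that breaks down heme, and stood at 4.82, 6.94 and 5.91 CPM in vehicle and 464, 482 and 464 CPM after DHA, a log2 fold change of 6.28 ± 0.16 (SE; adjusted p = 4.24e-16). Every DHA library therefore exceeded every vehicle library by more than an order of magnitude. The other genes of the 12 largest rises were HSPA6 (4.68), ANGPTL4 (4.52), HSPA1A (4.25), HSPA1B (3.80), the pseudogene NMRAL2P (3.66), BEST1 (3.58), TRIML2 (3.30), CXCL2 (3.23), CXCL3 (3.10), RHOB (3.01) and NR4A1 (2.78), given as log2 fold changes. HSPA6, ANGPTL4, CXCL2, CXCL3 and NR4A1 stood below 5 CPM in every vehicle library, so they passed that limit through their DHA levels. The 12 largest falls were led by CAVIN2, a coat protein of caveolae, which stood at 297, 306 and 287 CPM in vehicle and 22.5, 20.8 and 24.6 CPM after DHA (-3.73 ± 0.08; adjusted p = 1.08e-71). With it came long non-coding and repeat-related transcripts (MIR503HG, MIR137HG, XACT, ENSG00000272463 and the DUX4 pseudogene DUX4L33), the secretion regulator RIMS2, the LIM protein LMO3, the collagen COL5A2, the transporter SLCO4C1, and CPED1 and KRTAP4-8, with log2 fold changes from -2.44 (MIR503HG) to -2.06 (XACT). Counts of DUX4L33, KRTAP4-8 and NMRAL2P are uncertain, because related copies may share their reads.

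NRF2 target genes rose almost as a whole. Of 32 listed targets 31 were tested, 29 rose and 20 of these at least 2-fold, against 17.4% and 2.39% of all genes tested. The median log2 fold change was 1.42, beside 0.00 over all genes. TXNRD1, a thioredoxin reductase, stood at 491, 489.9 and 525 CPM in vehicle and 1952, 2029.8 and 1936 CPM after DHA (1.97 ± 0.06; adjusted p = 1.19e-56). GCLM, the regulatory subunit of the enzyme that limits glutathione synthesis, went from 50.3–67.2 to 289–341 CPM (2.52 ± 0.08), and the catalytic subunit GCLC from 34.6–42.8 to 147–156 CPM (1.96 ± 0.09). The 3 DHA libraries lay together and far above the vehicle libraries for each of these genes. SQSTM1, an autophagy receptor that also binds KEAP1, rose from 241–256 to 1393–1610.5 CPM (2.58 ± 0.06). UGDH, which makes UDP-glucuronate (1.76 ± 0.07), GSR, which regenerates glutathione (1.13 ± 0.06), and the NADPH-making malic enzyme ME1 (1.14 ± 0.11) rose as well. The exceptions were ABCC4, an export pump, which fell (-0.35 ± 0.10, adjusted p = 0.00375), and AKR1C2, at 0.59 with no call.

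The promoters of these genes were read for the antioxidant response element, the sequence NRF2 binds together with small MAF proteins. RefSeq promoters on GRCh38.p14, from 250 bases before to 50 bases after a gene's start, were available for 23 of the 31 tested targets. The core TGACNNNGC, searched on both strands with N as any base, occurred in 6 of the 23, in 5 of the 21 that rose, in 13.6% of all 27305 promoters and in 15.2% of those of tested genes. The stretches around the core of 3 members that rose are shown with the core in capitals, because they let the element be seen beside the size of the response.
TXNRD1 (chr12:104215656-104215712, plus strand): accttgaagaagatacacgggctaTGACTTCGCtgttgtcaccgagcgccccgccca
GCLM (chr1:93909432-93909488, minus strand): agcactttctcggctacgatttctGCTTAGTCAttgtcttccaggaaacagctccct
ME1 (chr6:83431156-83431212, minus strand): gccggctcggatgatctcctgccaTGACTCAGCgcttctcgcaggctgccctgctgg
In GCLM the core lies on the opposite strand and so reads as its reverse complement. Its share among the targets was not tested against the background.

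Transcripts of iron storage and cystine uptake rose, while that of the peroxide-reducing enzyme at the centre of ferroptosis fell. The ferritin heavy chain FTH1 stood at 160.5, 176 and 223 CPM in vehicle and 1029.8, 1052 and 1058 CPM after DHA (2.49 ± 0.15; adjusted p = 1.79e-08), and the light chain FTL rose from 1348–1457 to 3685–3839 CPM (1.42 ± 0.07). Ferritin has many processed pseudogenes, so the way reads were shared among copies adds uncertainty to both. SLC7A11 stood at 207, 257 and 212 CPM in vehicle and 709.97, 712 and 657 CPM after DHA (1.61 ± 0.06; adjusted p = 2.8e-44), and its partner chain SLC3A2 rose from 152–179.8 to 475–517 CPM (1.57 ± 0.06). AIFM2, which encodes the quinone reductase FSP1, rose from 28.4 ± 2 to 79.0 ± 2.53 CPM (SD, n = 3; 1.46 ± 0.09). GPX4, the glutathione peroxidase that reduces lipid hydroperoxides, stood at 113, 100.4 and 110.02 CPM in vehicle and 70.9, 78.6 and 88.8 CPM after DHA (-0.43 ± 0.07; adjusted p = 9.81e-07). Its libraries did not overlap between groups, and the adjusted p with library size alone was 0.0645. The GPX4 call held when erastin replicate 3 was also left out. ACSL4, which loads polyunsaturated acids onto coenzyme A, overlapped between groups at 149.7, 146 and 123 against 113, 124 and 114 CPM and fell by a small step (-0.24 ± 0.07; adjusted p = 0.00323). The transferrin receptor TFRC rose from 503–569 to 731–789 CPM (0.47 ± 0.05; adjusted p = 1.19e-12).

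The wider ferroptosis and iron lists were mixed, and library size alone gave fewer calls in most of them. Of 23 tested suppressors of ferroptosis 6 rose, 6 fell and 11 were not called, with a median log2 fold change of -0.04. Of 20 drivers and markers 9 rose and 3 fell (5 and 1 with library size alone), among them PTGS2, a cyclooxygenase used as a ferroptosis marker, and SAT1, a polyamine acetylase that rose from 20.9–23.1 to 64.2–69.1 CPM (1.60 ± 0.11). CHAC1, a glutathione-degrading enzyme also used as a marker, overlapped at 2.11, 6.36 and 0.985 against 2.4, 3.64 and 2.01 CPM (-0.27 ± 0.67; adjusted p = 0.797). Of 27 iron and heme genes 8 rose and 6 fell, against 4 and 4 with library size alone and 7 and 3 with DESeq2: BACH1, the heme-sensitive repressor of HMOX1, rose (0.68 ± 0.07), and the iron sensors ACO1 (-0.36 ± 0.06) and FBXL5 (-0.54 ± 0.10) fell. Of 31 glutathione, thioredoxin and peroxide enzymes 12 rose and 4 fell (6 and 2 with library size alone, 12 and 8 when erastin replicate 3 was also left out), among the latter the mitochondrial peroxiredoxin PRDX3 (-0.41 ± 0.07). Metallothioneins and zinc genes rose in 5 of 7 tested, and in 3 with library size alone: MT1X went from 7.63–8.73 to 23.4–30.4 CPM (1.78 ± 0.17) and the zinc exporter SLC30A1 from 41.8–53.7 to 84.7–88.8 CPM (0.90 ± 0.08), while the zinc importer SLC39A10 fell (-0.92 ± 0.09). Metallothionein copies are alike, so their counts are uncertain.

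**Figure D2:**
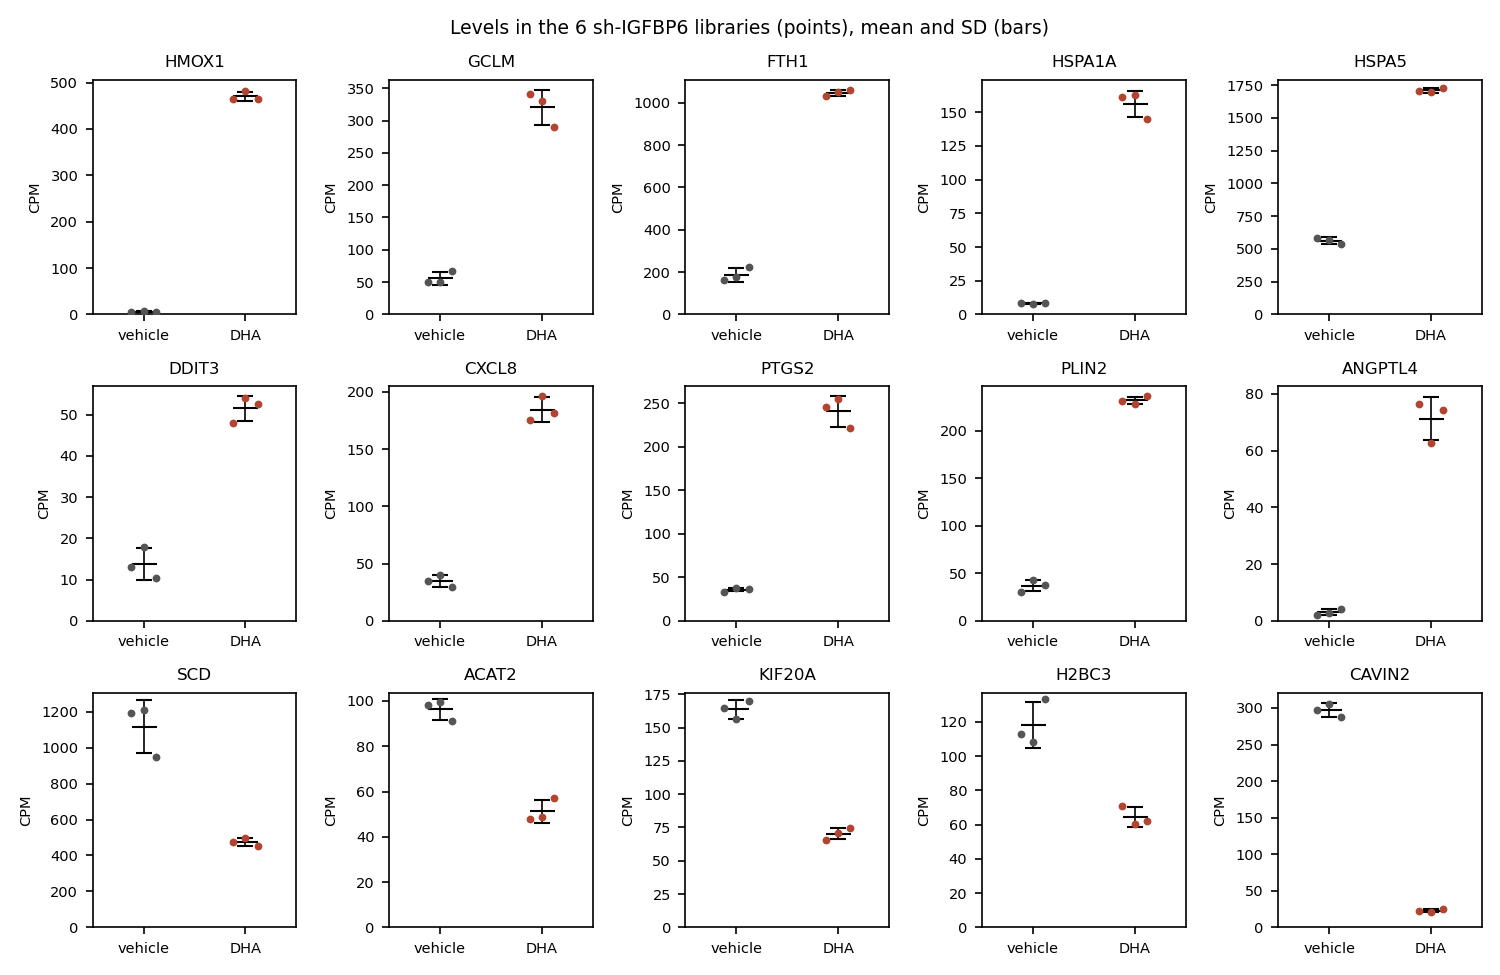
Levels (CPM, linear axis from 0) of 15 genes in the 3 vehicle and 3 DHA libraries of sh-IGFBP6; points are libraries and bars show the mean and SD. The 2 groups do not overlap in any panel: 10 genes are higher after DHA and SCD, ACAT2, KIF20A, H2BC3 and CAVIN2 are lower.

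Genes of cytosolic and endoplasmic reticulum chaperones rose. Of 19 heat shock genes tested, 15 rose, none fell and the median log2 fold change was 0.61. The rises numbered 9 with library size alone and 14 when erastin replicate 3 was also left out. HSPA1A, the inducible HSP70, stood at 8.43, 7.71 and 8.61 CPM in vehicle and 161, 163 and 145 CPM after DHA (4.25 ± 0.13; adjusted p = 7.39e-36), and HSPA1B went from 38.5–49.1 to 591–649 CPM (3.80 ± 0.12). These neighbouring genes are nearly identical, so the split of reads between them is uncertain, though both rose. HSPA6, a strictly inducible HSP70, went from 0.193–0.738 to 9.03–12.3 CPM (4.68 ± 0.83). Their co-chaperones DNAJB1, from 78.8–92.7 to 387–406 CPM (2.24 ± 0.07), and BAG3 (1.04 ± 0.07) rose too, and so did the constitutive HSPA8 (0.86 ± 0.07). Of 26 endoplasmic reticulum chaperone and degradation genes 22 rose and none fell, with a median of 0.49. Library size alone gave 10 rises, and 20 when erastin replicate 3 was also left out. HSPA5, the chaperone BiP, stood at 587, 566 and 537 CPM in vehicle and 1703, 1696 and 1730.2 CPM after DHA (1.60 ± 0.06; adjusted p = 1.26e-50). HERPUD1, a degradation factor (1.84 ± 0.09), DNAJB9, a co-chaperone of BiP (1.78 ± 0.14), PDIA4, a disulfide isomerase (0.86 ± 0.06), and the transcription factor XBP1 (0.80 ± 0.08) rose with it. Proteasome subunits rose by small steps, 25 of 33 with a median of 0.28 and none by 2-fold, for example PSMD11 (0.49 ± 0.06). That count was 2 of 33 with library size alone and 22 of 33 when erastin replicate 3 was also left out.

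The heat shock element was visible in several of these promoters. The core GAANNTTC, the same on both strands, occurred in 8 of 17 heat shock genes with a promoter, in 6 of the 14 that rose, in 6.87% of all promoters and in 4.63% of those of tested genes. The core is in capitals in the stretches of the 2 inducible HSP70 genes and of HSPA8, shown because HSPA1A and HSPA1B are among the largest rises and HSPA8 is their constitutive relative.
HSPA1A (chr6:31815413-31815468, plus strand): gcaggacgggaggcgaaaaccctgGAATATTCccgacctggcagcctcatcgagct
HSPA1B (chr6:31827609-31827664, plus strand): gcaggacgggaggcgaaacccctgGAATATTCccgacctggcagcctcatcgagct
HSPA8 (chr11:123062155-123062210, minus strand): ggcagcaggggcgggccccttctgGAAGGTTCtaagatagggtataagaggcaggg
The stretches of HSPA1A and HSPA1B read almost alike.

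Within the integrated stress response, several stress factors rose and the serine synthesis enzymes fell by small steps. Of 24 genes tested 13 rose and 2 fell (11 and 0 with library size alone). DDIT3, the factor CHOP, stood at 12.9, 17.9 and 10.3 CPM in vehicle and 48.1, 54.0 and 52.4 CPM after DHA (1.88 ± 0.13; adjusted p = 3.29e-25). PPP1R15A, which restores translation by bringing a phosphatase to eIF2 alpha, rose from 154–174 to 425–443 CPM (1.40 ± 0.06), and CEBPB, a partner of CHOP, from 51.8–69.8 to 178–210.2 CPM (1.59 ± 0.07). ATF3 (1.58 ± 0.19), the stress sensor SESN2 (1.22 ± 0.12) and the pseudokinase TRIB3 (0.72 ± 0.10) rose as well. The serine synthesis enzyme PSAT1 stood at 151, 185 and 146 CPM in vehicle and 141, 139 and 122 CPM after DHA (-0.27 ± 0.07; adjusted p = 0.00135), and its pathway neighbour PHGDH at 33.2–40.1 against 28.1–30.7 CPM (-0.29 ± 0.11; adjusted p = 0.0374). The PHGDH call was lost in 7 of 16 alternatives, among them leaving out vehicle replicate 2 or any DHA library. The PSAT1 call was also lost without vehicle replicate 2, so that list had 0 falls without that library. Over all alternatives the highest adjusted p was 0.303 for PHGDH and 0.308 for PSAT1. Asparagine synthetase, ASNS, overlapped at 1.2, 4.63 and 0.492 against 2.1, 3.2 and 3.01 CPM (0.28 ± 0.38; adjusted p = 0.613); without vehicle replicate 2, the highest of these, it was called (lowest adjusted p 0.00667). Among 20 cytosolic aminoacyl-tRNA synthetases 8 rose, led by WARS1 (0.41 ± 0.06) and AARS1 (0.39 ± 0.07), and 1, QARS1, fell (-0.17 ± 0.06), but 3 rose without vehicle replicate 3, none changed with library size alone, and 4 rose against 4 that fell when erastin replicate 3 was also left out. QARS1 was lost without vehicle replicate 1, DHA replicate 1 or DHA replicate 3 (highest adjusted p over all alternatives 0.497). The composite element TGATGCAAT, bound by CHOP or ATF4 with C/EBP partners, was in none of the 20 promoters of the stress response list and in 0.264% of all promoters.

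Chemokines and other NF-kB targets rose together. Of 28 tested 23 rose, 15 at least 2-fold, and none fell, with a median log2 fold change of 1.20. CXCL8, a neutrophil attractant, stood at 35.2, 40.1 and 29.5 CPM in vehicle and 175, 196 and 181 CPM after DHA (2.39 ± 0.09; adjusted p = 2.98e-51). CXCL2 went from 2.71–4.05 to 29.4–33.7 CPM (3.23 ± 0.19) and CXCL3 from 3.2–4.05 to 26.6–32.9 CPM (3.10 ± 0.19), both also neutrophil attractants. The cytokine IL1B (69.9–81.7 to 241–274 CPM, 1.76 ± 0.07) and the monocyte attractant CCL2 (36.8–41.6 to 112–122 CPM, 1.58 ± 0.09) rose as well. PTGS2 stood at 33.7, 37.4 and 36.9 CPM in vehicle and 245, 255 and 221 CPM after DHA (2.73 ± 0.08; adjusted p = 2.2e-58). It led 17 tested genes of prostaglandin and oxylipin handling, of which 7 rose and none fell, 41.2% called, among them the prostaglandin synthases AKR1C3 (1.76 ± 0.15) and AKR1B1 (0.93 ± 0.07) and the cytochrome CYP1B1 (1.14 ± 0.13). Interferon genes gave 9 rises and 4 falls of 35, 37.1% called beside 34.2% of all genes, and the balance turned with the scaling. It was 1 rise and 4 falls with library size alone, 7 and 7 when erastin replicate 3 was also left out, and 9 and 2 without DHA replicate 2. IFI44L rose (0.86 ± 0.12), HLA-B rose (0.54 ± 0.11) and IFIT3 (-0.36 ± 0.07) and GBP1 (-1.06 ± 0.22) fell.

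Immediate early genes gave 22 rises and 3 falls of 30 tested, with a median of 0.91. FOS stood at 12.3, 9.06 and 8.86 CPM in vehicle and 63.7, 66.5 and 65.0 CPM after DHA (2.72 ± 0.13; adjusted p = 1.69e-31), and the orphan nuclear receptor NR4A1 went from 0.964–2.11 to 9.31–14.4 CPM (2.78 ± 0.29). DUSP10, a phosphatase of stress kinases (2.02 ± 0.12), KLF6 (1.52 ± 0.07) and IER3 (1.17 ± 0.07) rose. DUSP6, the feedback phosphatase of ERK (-0.60 ± 0.07), and the matricellular CCN1 (-0.62 ± 0.06) fell.

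Autophagy receptors and lysosomal genes shifted upward in part. Of 26 autophagy genes 16 rose (8 with library size alone) and none fell: GABARAPL1, an ATG8 family member, went from 10.1–14.5 to 60.2–68.8 CPM (2.29 ± 0.12), and the folliculin complex genes FLCN (1.01 ± 0.09) and FNIP1 (0.93 ± 0.08) rose as well. Of 36 lysosomal genes 20 rose and 7 fell. Cathepsin L, CTSL (1.02 ± 0.09), cathepsin D, CTSD (0.97 ± 0.08), and the sphingolipid activator PSAP (0.86 ± 0.06) rose, while cathepsin C, CTSC (-0.89 ± 0.06), and the acid lipase LIPA (-0.68 ± 0.10) fell. The lysosomal count was 8 rises and 4 falls with library size alone.

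Genes of lipid storage and oxidation moved in both directions. The lipid droplet coat PLIN2 stood at 30.7, 43.0 and 37.7 CPM in vehicle and 231, 228 and 236 CPM after DHA (2.61 ± 0.08; adjusted p = 4.93e-59). ANGPTL4, a PPAR-induced inhibitor of lipoprotein lipase, stood at 2.11, 2.7 and 4.18 CPM in vehicle and 76.6, 62.5 and 74.5 CPM after DHA (4.52 ± 0.17; adjusted p = 7e-41). CPT1A, which passes fatty acids into mitochondria, rose from 64.4–80.2 to 131–138 CPM (0.89 ± 0.07). PDK4, which holds back pyruvate oxidation (1.95 ± 0.29), and ACADVL, an early enzyme of beta-oxidation (0.75 ± 0.05), also rose. The rest of their list did not move as a whole: of 30 tested PPAR targets and oxidation genes 6 rose and 10 fell, with a median of 0.02 (-0.06 with library size alone), and the mitochondrial carrier UCP2 (-0.84 ± 0.09) was among the falls. Of 18 lipid droplet genes 38.9% were called, near the 34.2% of all genes: 3 rose, among them DGAT1 (0.47 ± 0.12), and 4 fell, among them the monoglyceride lipase MGLL (-0.93 ± 0.07) and FITM2 (-0.89 ± 0.17). Library size alone gave 1 rise and 3 falls.

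Most genes of sterol and fatty acid synthesis fell. Of 25 cholesterol genes 19 fell, none rose and the median was -0.41. The falls numbered 12 with library size alone, and 22 when erastin replicate 3 was also left out. ACAT2, a cytosolic acetyl-CoA acetyltransferase at the start of the pathway, stood at 98.2, 99.5 and 91.1 CPM in vehicle and 47.8, 48.6 and 57.2 CPM after DHA (-0.92 ± 0.08; adjusted p = 1.92e-18). DHCR7, a sterol reductase near its end, went from 157–187 to 92.1–109 CPM (-0.76 ± 0.07). Both fell clear of the vehicle libraries. HMGCS1, an early enzyme of the pathway, overlapped at 173, 171 and 138 against 135, 143 and 129 CPM (-0.24 ± 0.07; adjusted p = 0.00338), and its call was lost without vehicle replicate 1 or 2 (highest adjusted p over the alternatives 0.239). Of 20 genes of fatty acid synthesis, desaturation and elongation 15 fell and 1, ME1, rose, with a median of -0.45. The desaturase SCD stood at 1193, 1209 and 948 CPM in vehicle and 473, 498 and 455 CPM after DHA (-1.23 ± 0.08; adjusted p = 8.49e-14), and FADS2, which starts the making of long polyunsaturated acids, went from 509–553 to 312–341 CPM (-0.70 ± 0.06). The fatty acid synthase FASN (-0.70 ± 0.06), the acetyl-CoA carboxylase ACACA (-0.77 ± 0.06) and their regulator SREBF1, from 142–148 to 64.3–75.3 CPM (-1.02 ± 0.07), fell as well. The sterol exporter ABCA1 went from 4.18–6.17 to 1.25–3 CPM (-1.21 ± 0.33), a fall, whereas APOE, a lipoprotein component, rose (0.67 ± 0.11). The sterol regulatory element TCACCCCAC, searched on both strands, was found in 1 of 18 promoters of the cholesterol list and in 0.425% of all promoters. That promoter belonged to SREBF2, the master regulator of sterol synthesis, and is shown with the element in capitals.
SREBF2 (chr22:41832948-41833004, plus strand): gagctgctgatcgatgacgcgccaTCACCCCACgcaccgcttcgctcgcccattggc
SREBF2 itself fell, with a log2 fold change of -0.32 (adjusted p = 5.53e-07).

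**Figure D3:**
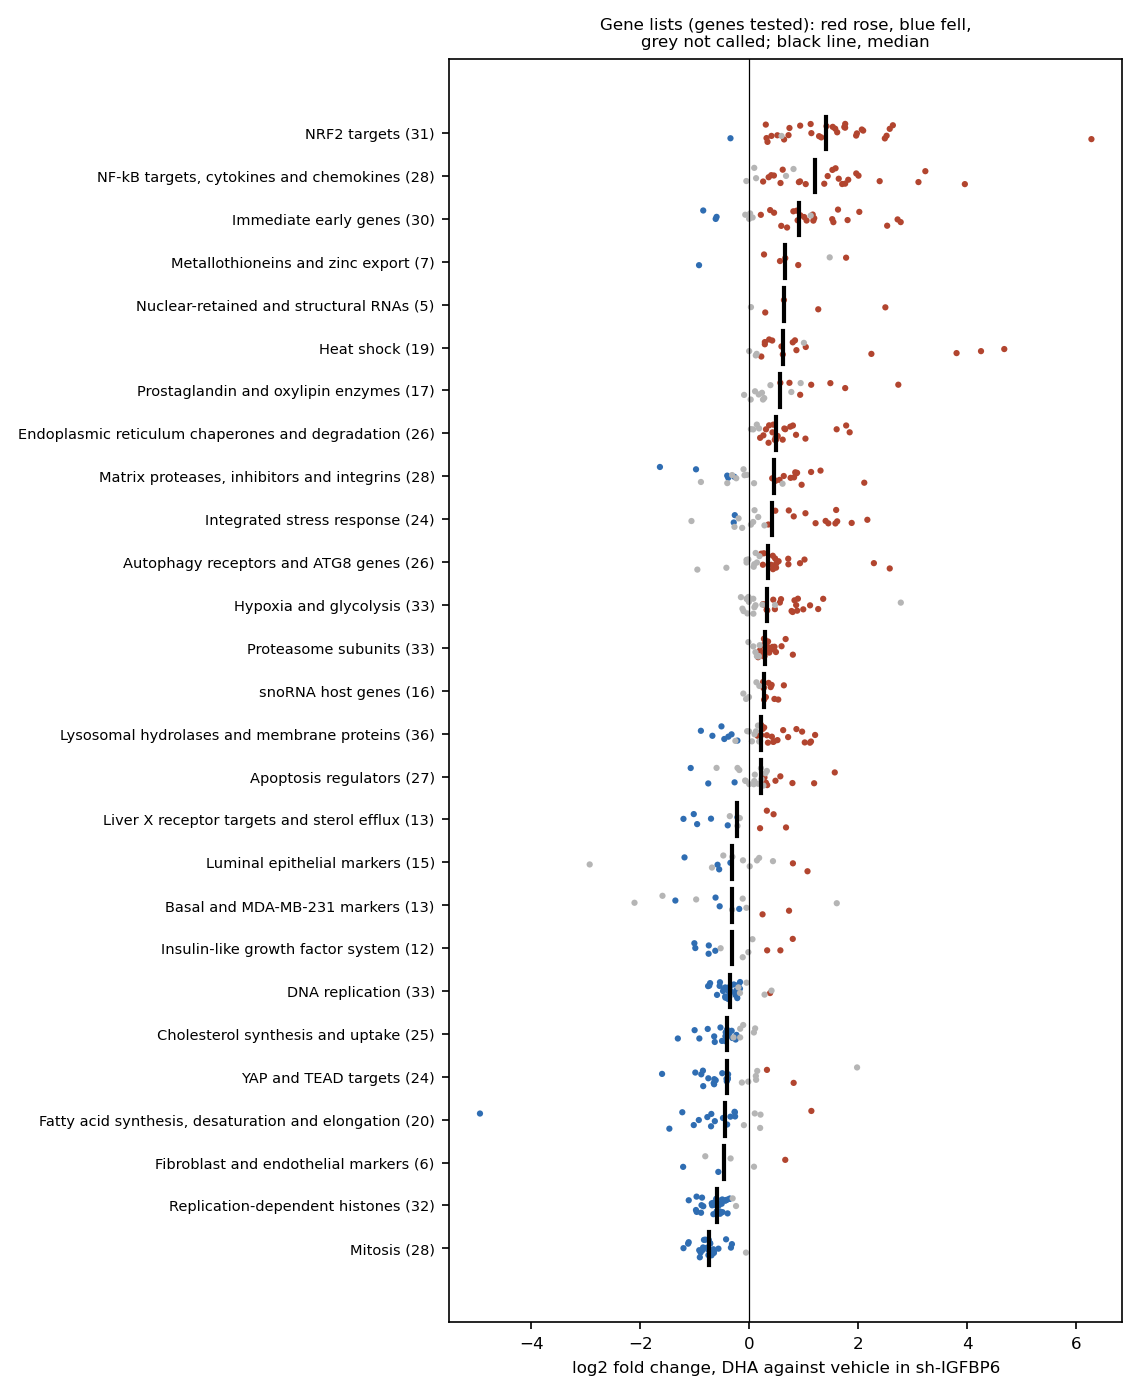
Log2 fold changes for DHA over vehicle in sh-IGFBP6 of the members of each gene list with at least 5 genes tested and a median of at least 0.2 in size; red points rose, blue fell, grey were not called, and the black line is the median. The NRF2 list has the highest median, 1.42, and the mitosis list the lowest, -0.73; MLXIPL, the leftmost point of the fatty acid list, had 0 CPM in every DHA library, so its place is no measure of size.

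Mitotic, DNA replication and histone genes fell, whereas G1 cyclins and CDK inhibitors moved in both directions. Of 28 mitotic genes 27 fell and none rose, with a median of -0.73. KIF20A, a kinesin of cytokinesis, stood at 165, 156 and 170.1 CPM in vehicle and 65.8, 71.0 and 74.5 CPM after DHA (-1.21 ± 0.07; adjusted p = 6.45e-30), and the proliferation marker MKI67 went from 856–939 to 495–562 CPM (-0.75 ± 0.06). The checkpoint kinase BUB1 (-0.83 ± 0.06) and the topoisomerase TOP2A (-0.74 ± 0.06) fell as well. Of 33 DNA replication genes 27 fell, with a median of -0.36, for example the helicase subunit MCM7 (-0.47 ± 0.06) and the thymidine kinase TK1 (-0.76 ± 0.07), and 1, the origin factor ORC6, rose (0.38 ± 0.11). Library size alone left 13 falls and no rise, and 28 falls and 1 rise when erastin replicate 3 was also left out. Of 32 tested genes of the histone list 30 fell, with a median of -0.60: H2BC3 stood at 113, 108 and 133 CPM in vehicle and 70.9, 60.4 and 62.2 CPM after DHA (-0.89 ± 0.08; adjusted p = 5.93e-19), and H2AC4 fell by a similar step (-0.88 ± 0.08). Histone genes resemble each other, which makes single members uncertain. Of 23 G1 cyclins and CDK inhibitors 7 rose and 6 fell, with a median of -0.07 (4 and 3 with library size alone). The CDK inhibitor CDKN1A, p21, rose from 44.8–48.8 to 146–163 CPM (1.73 ± 0.08; adjusted p = 1.62e-40), and the MYC antagonist MXD1 (1.00 ± 0.10) rose with it. Cyclin D1, CCND1 (-0.40 ± 0.06), and the CDK inhibitor CDKN2C (-0.74 ± 0.12) fell.

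Mitotic promoters often carry CCAAT boxes, bound by NF-Y, and a cell cycle homology region bound through MuvB complexes. CCAAT occurred on either strand in 20 of 24 mitotic promoters, in 19 of the 23 whose genes fell, in 35.7% of all promoters and in 36.8% of those of tested genes. The homology region TTTGAA occurred in 14 of 24, in 13 of 23 that fell, in 15.4% of all and in 10% of tested promoters. A stretch from 4 members that fell is shown, with CCAAT in capitals in the first pair and TTTGAA in the second, each read on either strand.
KIF20A (chr5:138179021-138179073, plus strand): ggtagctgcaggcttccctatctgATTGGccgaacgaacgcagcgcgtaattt
BUB1 (chr2:110678089-110678141, minus strand): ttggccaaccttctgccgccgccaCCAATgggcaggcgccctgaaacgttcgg
TOP2A (chr17:40418018-40418071, minus strand): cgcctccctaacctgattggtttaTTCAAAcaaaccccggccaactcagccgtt
DLGAP5 (chr14:55191665-55191718, minus strand): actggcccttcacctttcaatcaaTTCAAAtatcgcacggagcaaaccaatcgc
A match of these letters describes the promoter and is not a measured binding site.

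Death regulators moved in opposite directions. Of 25 p53 targets 12 rose and 3 fell, 60% called, and of 27 apoptosis regulators 9 rose and 3 fell, 44.4% called. Of all genes 34.2% were called. The p53 rises numbered 6 with library size alone, 7 with DESeq2 and 8 without vehicle replicate 2, and the apoptosis rises 4 with library size alone and 6 with DESeq2. The p53 falls numbered 1 without vehicle replicate 1 or DHA replicate 1, and the apoptosis falls 5 without vehicle replicate 3 or erastin replicate 3. Library size alone without erastin replicate 3 gave 8 rises and 4 falls of p53 targets, and 6 and 6 of apoptosis regulators. The pro-apoptotic BBC3, PUMA, rose from 4.68–7.9 to 13.4–15.6 CPM (1.19 ± 0.20), the death receptor TNFRSF10B (0.57 ± 0.07) rose, and the protective MCL1 rose (0.79 ± 0.06). BCL2L1, which encodes protective BCL-XL, fell from 137–142 to 61.6–68.8 CPM (-1.08 ± 0.07; adjusted p = 1.34e-26), and the initiator caspase CASP9 fell (-0.75 ± 0.18). DDB2, a DNA repair gene under p53, fell (-0.51 ± 0.13) while GADD45A rose (0.81 ± 0.10).

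Adhesion, caveolar and growth factor genes changed in both directions. CAV1, the main caveolin, stood at 282, 282 and 266 CPM in vehicle and 111, 115 and 97.1 CPM after DHA (-1.36 ± 0.06; adjusted p = 1.83e-36). CAV2 (-0.62 ± 0.11) and CAVIN1 (-0.54 ± 0.06) fell with CAVIN2 and CAV1. These genes were named because they were called, and caveolar genes were not counted as a list. Of 24 YAP and TEAD targets 16 fell and 2 rose, with AJUBA (-0.85 ± 0.07), CRIM1 (-0.65 ± 0.05) and AMOTL2 (-0.64 ± 0.06) among the falls and LATS2, a kinase that restrains YAP, among the rises (0.32 ± 0.08). Without DHA replicate 3 the rises numbered 4. Of 28 proteases, inhibitors and integrins 14 rose and 5 fell (10 and 2 with library size alone): the protease ADAMTS1 (1.13 ± 0.07) and integrin ITGA2 (0.96 ± 0.06) rose, while integrin ITGA6 went from 310.4–358 to 168–173 CPM (-0.98 ± 0.06) and the plasminogen activator PLAT from 87.9–114 to 30.4–34.0 CPM (-1.64 ± 0.09). Of 27 genes of TGF-beta, activin and BMP signalling 13 rose and 6 fell, against 6 and 4 with library size alone. The activin subunit INHBA rose from 22.6–26.6 to 68.2–86.0 CPM (1.66 ± 0.10), as did the feedback inhibitors SKIL (1.58 ± 0.11) and SMAD7 (1.67 ± 0.15), while the activin antagonist FST (-0.89 ± 0.08) and the receptor TGFBR2 (-0.59 ± 0.06) fell. Among matrix genes FN1 (-0.61 ± 0.07) and COL12A1 (-0.62 ± 0.05) fell, in a list with 8 rises and 9 falls of 30 (5 and 5 with library size alone).

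In the insulin-like growth factor system, to which the hairpin's target belongs, 3 of 12 tested genes rose and 5 fell. IGFBP1 went from 39.1–43.2 to 15.6–24.1 CPM (-1.01 ± 0.12) and IGFBP4 from 617–642 to 375–457 CPM (-0.63 ± 0.07), both binding proteins that fell. The receptor adaptor IRS1 fell (-0.75 ± 0.06) and its paralog IRS2 rose (0.80 ± 0.08). Of 12 EGFR family genes 2 rose and 3 fell, 41.7% called beside 34.2% of all genes. Scaled by library size alone with erastin replicate 3 left out, 2 rose and 6 fell. In this family the ligand EREG stood at 73.2, 65.9 and 61.0 CPM in vehicle and 281, 299 and 257 CPM after DHA (2.08 ± 0.07; adjusted p = 5.38e-52), the feedback inhibitor ERRFI1 rose (0.74 ± 0.06), and the receptors ERBB3 (-1.11 ± 0.15) and ERBB2 (-0.33 ± 0.08) fell. Of 33 hypoxia and glycolysis genes 18 rose and none fell, among them the glucose transporter SLC2A3 (1.26 ± 0.09), PFKFB3, which speeds glycolysis (0.99 ± 0.07), and the vasodilator peptide ADM (1.36 ± 0.13). Leaving out a DHA library or erastin replicate 3 gave at most 2 falls. Library size alone gave 10 rises and no falls, and library size alone without erastin replicate 3 gave 16 rises and 4 falls.

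Cell type markers moved in both directions. Of 13 basal and MDA-MB-231 markers tested 2 rose and 4 fell, 46.2% called beside 34.2% of all genes. Of 15 luminal markers tested 2 rose and 4 fell, 40% called, and of 6 fibroblast and endothelial markers 1 rose and 2 fell. The keratins KRT19, from 159–195 to 70.9–88.1 CPM (-1.19 ± 0.08), and KRT8 (-0.58 ± 0.06) fell, whereas the tight junction gene CLDN4 rose (1.07 ± 0.09). ACTA2 (-1.22 ± 0.34) and ENG (-0.57 ± 0.16) fell from vehicle levels of 4.84 ± 0.514 and 16.4 ± 2.06 CPM (SD, n = 3). Summed over all 19 luminal markers, the level was 983–1032 CPM in vehicle and 800.4–899.97 CPM after DHA, and over all 16 fibroblast and endothelial markers 35.1–40.0 and 28.1–30.03 CPM, with DCN and EMCN at 0 in all 6 libraries. The 15 leukocyte markers summed to 3.08–4.52 CPM in vehicle and 2.04–5.71 CPM after DHA, with CD3E, CD3D, MS4A1 and TYROBP among those at 0 in all 6 libraries and only PTPRC past the filter on low counts. The labels give MDA-MB-231 cells alone, and the part of other cell types in the results was not tested.

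NEAT1, MALAT1 and mitochondrial ribosomal RNA took more of the DHA libraries. The 10 most abundant genes took 5.33 to 5.49% of counts in vehicle and 6.95 to 7.38% after DHA. NEAT1, the scaffold of paraspeckles, stood at 243, 299 and 264 CPM in vehicle and 1595, 1499.9 and 1468 CPM after DHA (2.50 ± 0.13; adjusted p = 1.65e-09), and MALAT1, a nuclear speckle RNA, rose from 3504–4072 to 8662–9384 CPM (1.26 ± 0.07). KCNQ1OT1 rose (0.63 ± 0.08). RN7SL1, part of the signal recognition particle, rose too (0.29 ± 0.08, adjusted p = 0.00116). Its call was lost without erastin replicate 3 (highest adjusted p over all alternatives 0.642). Mitochondrial ribosomal RNA took 0.047 to 0.124% of counts in vehicle and 0.294 to 0.504% after DHA, without overlap. MT-RNR1 had a log2 fold change of 2.55 ± 1.63 that was not called in the fit with all libraries (adjusted p = 0.267), and was called without erastin replicate 3 (2.54 ± 0.41, adjusted p = 0.000446). MT-RNR2 behaved alike, at 2.39 ± 1.58 (adjusted p = 0.283) and, without that library, 2.38 ± 0.40 (adjusted p = 0.000581). None of the 13 mitochondrial messenger RNAs was called in the fit with all libraries, where their median log2 fold change was 0.54. Without erastin replicate 3 none was called either (lowest adjusted p 0.0536, for MT-CO1). MT-ND4L was called in the fit of the compared groups only (0.66, adjusted p = 0.00836), and MT-ND6 with library size alone (0.72, adjusted p = 0.0210). Of 41 nuclear genes of oxidative phosphorylation 8 fell and none rose, 19.5% called beside 34.2% of all genes, with COX5A among the falls (-0.40 ± 0.09). The falls numbered 2 with library size alone and 19 when erastin replicate 3 was also left out. Cytosolic ribosomal protein genes gave 13 small rises of 34 and no falls with TMM factors, 6 rises without vehicle replicate 2 or 3, 4 without DHA replicate 3, none with library size alone, and 4 rises against 5 falls when erastin replicate 3 was also left out. No direction is given for them.

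The response differed between the lines. The sh-IGFBP6 libraries are those described above, so the differences are not independent of the values already given. A test of the difference in DHA response, sh-IGFBP6 minus sh-LUC, called 3124 of 15189 genes (20.6%): 1581 (10.4%) responded more positively in sh-IGFBP6 and 1543 (10.2%) more negatively. That split, 50.6% positive, was 36.8% with upper quartile factors, 32.3% with no filter and 26.5% with library size alone, which moves the median difference of all genes to -0.14 and called 1041 genes. Library size alone without erastin replicate 3 called 3654 genes, of which 25.8% were positive. Chemokines rose in sh-IGFBP6, and CXCL8, CXCL2 and CXCL3 gave no call in sh-LUC. CXCL8 stood at 7.08, 6.91 and 10.8 CPM in sh-LUC vehicle and 6.81, 4.63 and 7.64 CPM in sh-LUC after DHA, a log2 change of -0.45 (adjusted p = 0.138), and the difference in log2 response was 2.84 ± 0.24 (adjusted p = 6.6e-19). CXCL2 differed by 3.92 ± 0.64 and CXCL3 by 3.50 ± 0.70, from levels of 0.708–1.8 and 0.354–1.2 CPM in sh-LUC vehicle that rest on few counts. Of 28 NF-kB targets 20 responded more positively in sh-IGFBP6 and none more negatively, and with library size alone these counts were 14 and 0. They were 19 and 0 when erastin replicate 3 was also left out.

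Heat shock, endoplasmic reticulum and most NRF2 genes also had the larger response in sh-IGFBP6. HSPA1A stood at 12.7, 12.6 and 13.9 CPM in sh-LUC vehicle and 15.9, 16.9 and 23.6 CPM after DHA, and its response differed by 3.73 ± 0.24 (adjusted p = 4.57e-19). HMOX1 stood at 4.25, 5.71 and 4.31 and 31.5, 30.3 and 37.1 CPM in the same groups, so it rose in both lines, by 6.28 on the log2 scale in sh-IGFBP6 and 2.79 in sh-LUC, with a difference of 3.49 ± 0.46 (adjusted p = 1.86e-05). HSPA5 differed by 1.42 ± 0.08, DDIT3 by 1.39 ± 0.26, PTGS2 by 2.55 ± 0.16, BEST1 by 3.26 ± 0.50 and TRIML2 by 3.50 ± 0.35. The integrated stress response, the list of DDIT3, leaned the other way. Of its 24 genes 5 responded more positively in sh-IGFBP6 and 9 more negatively. These counts were 1 and 8 with library size alone, and 4 and 9 when erastin replicate 3 was also left out. In counts, 19 of 31 NRF2 targets responded more positively and 1, SLC7A11, more negatively, as did 12 of 19 heat shock genes, 20 of 26 endoplasmic reticulum genes and 14 of 26 autophagy genes in the positive direction, with none in the negative for these last 3 lists. With library size alone the positive counts were 10 (NRF2), 4 (heat shock), 3 (endoplasmic reticulum) and 3 (autophagy). When erastin replicate 3 was also left out they were 17 of 32, 9 of 19, 16 of 26 and 12 of 28. The negative counts were then 2, 1, 0 and 1. Upper quartile factors gave 18, 10, 17 and 14.

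The cell cycle lists showed the opposite difference. Of 28 mitotic genes 27, of 33 replication genes 28 and of 32 histone genes 30 responded more negatively in sh-IGFBP6, against 1 replication gene more positively. With library size alone the negative counts were 21, 10 and 20. They were 27, 29 and 30 when erastin replicate 3 was also left out. MKI67 stood at 1020.4, 993 and 934 CPM in sh-LUC vehicle and 1019.8, 932 and 927 CPM after DHA, with no call there (-0.03; adjusted p = 0.762), and its response differed by -0.72 ± 0.08. CAVIN2 fell in both lines, from 204–223 to 102–119 CPM in sh-LUC, and further in sh-IGFBP6 (difference -2.81 ± 0.11, adjusted p = 7.84e-46). CDKN1A, which rose in sh-IGFBP6, went from 73.1–80.9 to 67.4–76.6 CPM in sh-LUC and differed by 1.85 ± 0.11.

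Serine synthesis, cystine uptake and transferrin receptor genes responded more strongly in sh-LUC. PHGDH went from 3.18–4.79 to 14.5–21.9 CPM in sh-LUC and differed by -2.42 ± 0.23 (adjusted p = 6.49e-16), and PSAT1 from 46.0–50.2 to 122–141 CPM with a difference of -1.72 ± 0.11. TFRC stood at 101, 90.8 and 104 CPM in sh-LUC vehicle and 428, 426 and 491 CPM after DHA, against 503–569 CPM already in sh-IGFBP6 vehicle, and differed by -1.71 ± 0.08 (adjusted p = 5.76e-37). SLC7A11 likewise started lower in sh-LUC, at 53.2–63.5 CPM, rose there by 2.17, and differed by -0.56 ± 0.09. Of 20 aminoacyl-tRNA synthetases 13 responded more negatively in sh-IGFBP6 and none more positively. These counts were 2 and 0 with library size alone, and 13 and 0 when erastin replicate 3 was also left out. Among lipid genes, PLIN2, ANGPTL4 and SCD moved in the same direction in both lines. PLIN2 rose by 1.96 and ANGPTL4 by 3.13 in sh-LUC, and SCD fell there by 1.39 on the log2 scale. The difference for SCD was 0.16 ± 0.11 (adjusted p = 0.334), and those for PDK4 (-0.02 ± 0.37), CPT1A (-0.12 ± 0.10) and FADS2 (0.03 ± 0.09) gave no call either, which does not show that these responses were equal. Of all genes 10.4% responded more positively in sh-IGFBP6 and 10.2% more negatively. Over the lists, 4 of 18 lipid droplet genes responded more positively in sh-IGFBP6 and 4 more negatively, against 6 and 1 of 25 cholesterol genes, 2 and 5 of 30 PPAR and oxidation genes and 1 and 5 of 20 fatty acid synthesis genes. With library size alone these counts were 0 and 1, 1 and 0, 1 and 4, and 0 and 1. When erastin replicate 3 was also left out they were 1 and 5, 4 and 4, 1 and 7 (of 31), and 1 and 7.

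**Figure D4:**
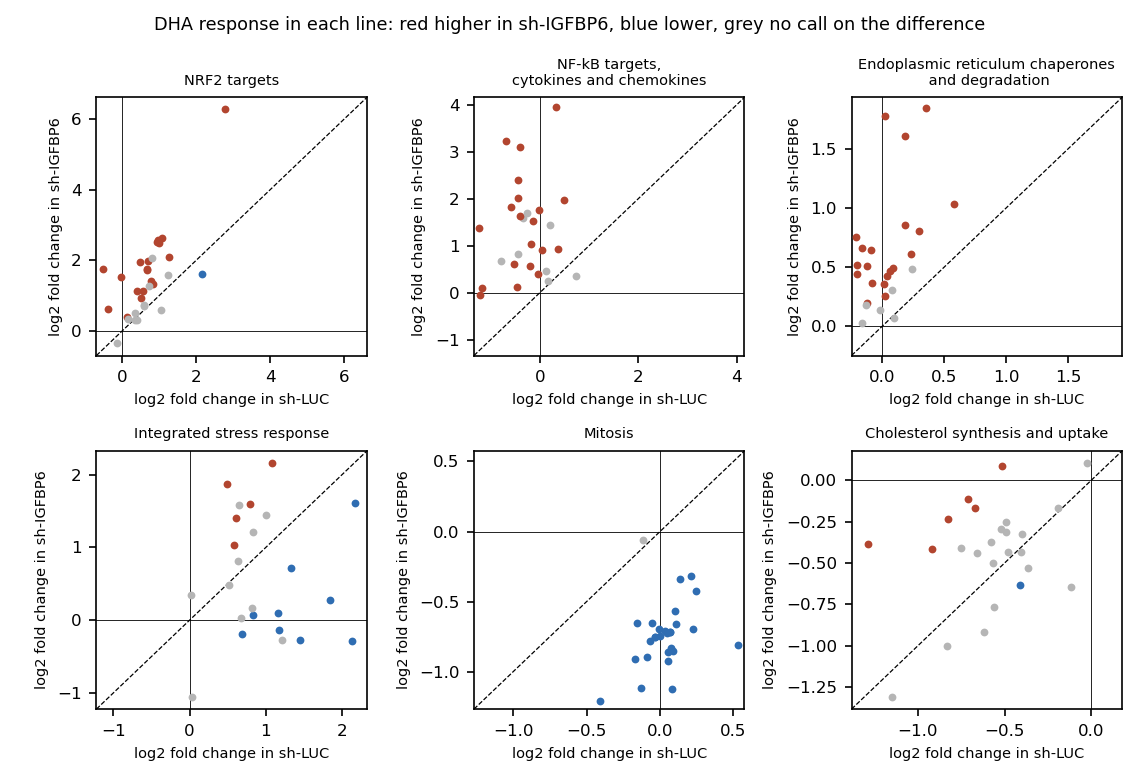
Log2 fold change for DHA over vehicle in sh-LUC (horizontal) against sh-IGFBP6 (vertical) for the members of 6 lists; red points responded more positively in sh-IGFBP6, blue more negatively, grey gave no call on the difference, and the dashed line marks equal responses. Most NRF2, NF-kB and endoplasmic reticulum genes lie above the line, and 27 of 28 mitotic genes below it. In the integrated stress response list 5 of 24 genes responded more positively and 9 more negatively.

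Erastin gave a different profile in the same line. This comparison uses the same DHA libraries as the one with vehicle. DHA and erastin libraries of sh-IGFBP6 differed in 3928 of 15189 genes (25.9%), with 1986 (13.1%) higher under DHA and 1942 (12.8%) lower. Of calls, 40.7% were higher with upper quartile factors and 63.1% with library size alone, which called 1541. When erastin replicate 3 was also left out, library size alone called 3846, of which 51.1% were higher. With TMM factors the count was 3874 without erastin replicate 3 and 2592 without erastin replicate 1. HMOX1 reached the same range under both agents, at 464, 482 and 464 CPM with DHA and 428, 469.8 and 587 CPM with erastin (log2 difference 0.02 ± 0.10, adjusted p = 0.921), and FTH1 and FTL gave no call between agents either (-0.10 ± 0.14 and -0.04 ± 0.07). Of 31 NRF2 targets 24 were higher under DHA and none lower, for example SQSTM1 (734–861 CPM under erastin, 0.92 ± 0.06). HSPA5 stood at 776–891 CPM under erastin (1.07 ± 0.06), CXCL8 at 68.6–82.2 CPM (1.20 ± 0.08) and ANGPTL4 at 13.9, 9.24 and 34.3 CPM (2.48 ± 0.13), all higher under DHA. CXCL3 (1.87 ± 0.16), the collagen COL7A1 (1.98 ± 0.15) and the channel gene PANX2 (1.78 ± 0.28) were among the largest differences in that direction.

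Immediate early genes and metallothioneins were higher under erastin. Of 30 immediate early genes 17 were lower under DHA and 4 higher. These counts were 7 and 2 with library size alone, and 17 and 5 when erastin replicate 3 was also left out. FOS stood at 374, 426 and 263 CPM under erastin (-2.57 ± 0.08; adjusted p = 1.51e-45), NR4A1 at 78.2, 88.8 and 49.5 CPM (-2.88 ± 0.13), ARC, an activity-induced gene, at 146, 160.4 and 114 CPM against 7.81, 10.5 and 8.03 CPM under DHA (-4.04 ± 0.12), and ATF3 at 43.2, 54.4 and 61.0 CPM (-1.56 ± 0.12). All 3 erastin libraries lay above all 3 DHA libraries for each of these. MT1X was lower under DHA as well (-1.52 ± 0.11), with 6 of 7 metallothionein and zinc genes lower and none higher. The CDK inhibitor CDKN1C (-2.92 ± 0.15) and the phosphatase DUSP8 (-3.05 ± 0.27) were lower under DHA, at 4.52–8.41 against 45.7–51.9 CPM and 1.31–2.51 against 12.6–30.5 CPM. CAVIN2 was lower under DHA than under erastin, where it stood at 146, 134 and 122 CPM (-2.64 ± 0.09). Histone genes were higher under DHA in 27 of 32: H2AC4 stood at 22.7, 17.9 and 7.62 CPM under erastin, below the DHA libraries (1.83 ± 0.11). Mitotic genes were near even, 5 higher and 4 lower. They were 2 and 6 without erastin replicate 3, 2 and 0 with library size alone and 2 and 2 with DESeq2. Library size alone without erastin replicate 3 gave 3 and 5. MT-RNR1 and MT-RNR2 were lower under DHA (-6.77 and -6.83) through erastin replicate 3, and without it stood at 0.85 (adjusted p = 0.183) and 0.62 (adjusted p = 0.345). Without that library the other genes named in this comparison stayed on their side of the threshold.

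**Figure D5:**
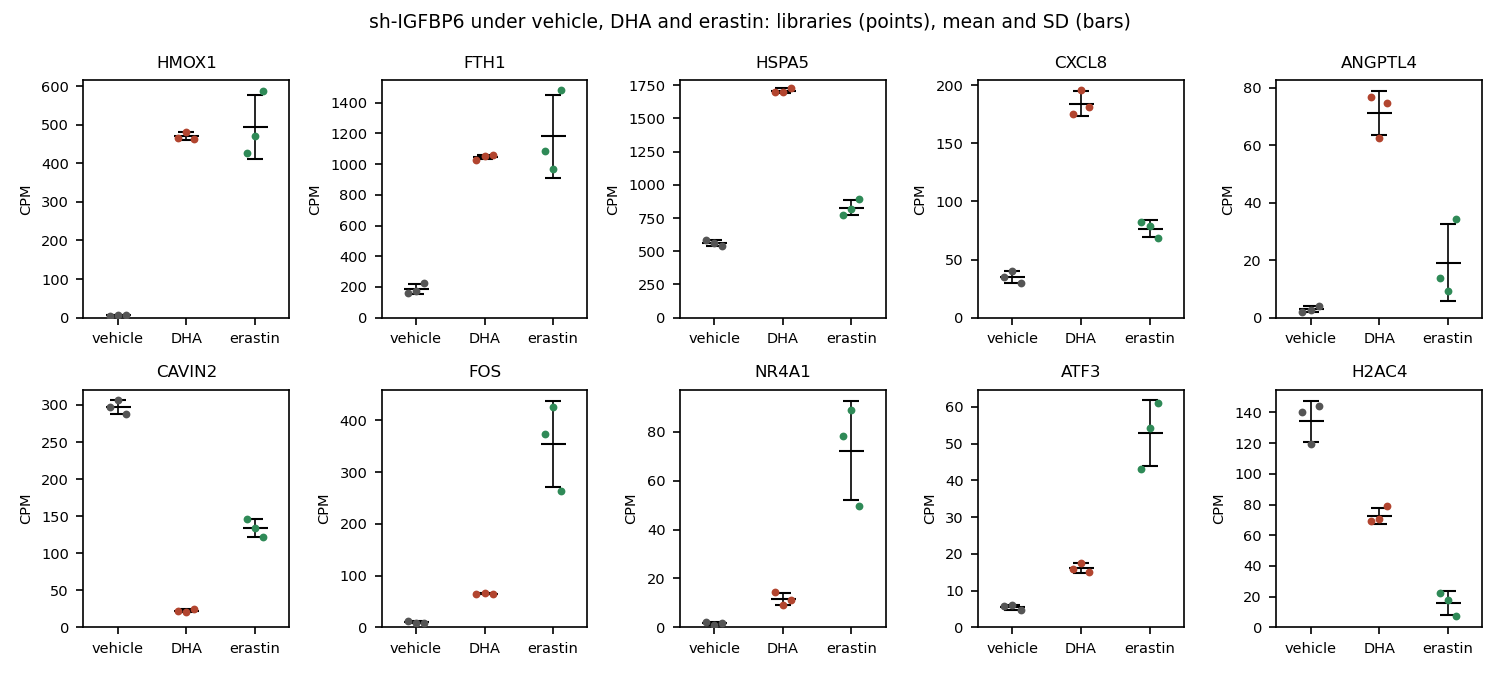
Levels (CPM, linear axis from 0) of 10 genes in sh-IGFBP6 libraries given vehicle, DHA or erastin; points are libraries and bars show the mean and SD, n = 3. HMOX1 and FTH1 overlap between DHA and erastin, HSPA5, CXCL8 and ANGPTL4 are highest under DHA, and FOS, NR4A1 and ATF3 are highest under erastin.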

How the data were processed

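Per the labels' protocols, total RNA was depleted of ribosomal RNA and made into libraries with an MGIEasy kit. The authors deposited 1 table of whole-number read counts per gene for all 18 libraries (60709 genes). Reads were trimmed with cutadapt 4.4, aligned with STAR 2.7.7a and counted with featureCounts on GRCh38, per the submitters' processing notes. The annotation release and strand setting were not given in the sources used here. Overlapping and antisense genes therefore cannot be told apart, and near-identical copies may share reads. Lines naming no gene held at most 0.0108% of a library and were left out. Symbols came from a gene name table (60480 matched, 213 more from GENCODE 29).

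Counts were tested in R 4.3.3 with edgeR 4.0.16 (limma 3.58.1): genes passing filterByExpr (minimum count 10, minimum total 15), TMM factors, robust quasi-likelihood fits over 6 groups of 3 libraries with 12 residual degrees of freedom, and adjustment over all 15189 genes. CPM use TMM effective library sizes, and standard errors were taken as the size of the log2 fold change over the square root of F (from the fitted information where F was below 1). With 3 libraries a group an exact permutation test could not reach 0.05, so none is given. The DHA comparison in sh-IGFBP6 was simulated for 15189 genes, with 50 genes changed at each fold and the rest unchanged. Changed genes were drawn from those with an expected vehicle count of at least 10. Of genes changed by 1.5, 2, 3 and 4-fold, 72, 90, 98 and 100% were called, and 11 of 14989 unchanged genes. Far fewer genes changed there than were called in the data, so these shares hold for that setting only. Replicate numbers did not pair the libraries. Alternatives were DESeq2 1.42.0, upper quartile factors, library size alone, other filters, fits of the compared groups only, a block for the replicate number, and each library left out. The alternatives without erastin replicate 3, and without mitochondrial ribosomal RNA, were partly chosen after seeing the data.

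Genes were named by a rule: a key gene list, the 12 largest non-overlapping rises and falls with a mean of at least 5 CPM over the 6 libraries, from each list up to 4 called members of lowest p and up to 2 against its majority, and the 6 most positive and negative differences between lines and between agents. VIM, CD44, CDH1, PTPRC, AKR1C2, SREBF2 and DLGAP5 were named outside it, after their values were seen. The lists and genes were chosen with earlier results of these data known. A few results are not reported here. Promoters are RefSeq's, on GRCh38.p14. Figures were drawn with matplotlib 3.10.9 under Python 3.11.15.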

Additional observations from a re-analysis of the deposited data

Results flagged for a closer look

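The results below stand out because the response to DHA differed between sh-IGFBP6 and sh-LUC cells by a test of the difference itself. It was called for 3124 genes. Differences are log2 responses in sh-IGFBP6 minus those in sh-LUC, and the causes were not tested. Among lipid genes the difference was 0.66 for PLIN2, 1.39 for ANGPTL4 and 0.59 for HMGCS1. Both PLIN2 and ANGPTL4 rose in both lines.

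Among antioxidant and iron genes it was 3.49 for HMOX1, 1.57 for GCLM, 1.28 for TXNRD1, 1.48 for FTH1, 0.62 for FTL and 1.02 for AIFM2, all rising more in sh-IGFBP6. SLC7A11 (-0.56) and TFRC (-1.71) rose in both lines and less in sh-IGFBP6. Among stress response genes it was 1.39 for DDIT3, -0.60 for TRIB3, -1.56 for ASNS and -2.42 for PHGDH. ASNS had a log2 change of 1.84 in sh-LUC (adjusted p = 5.2e-05) and no call in sh-IGFBP6.

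Among inflammatory and death-related genes it was 2.55 for PTGS2, 2.16 for SAT1, 1.85 for CDKN1A, 3.92 for CXCL2 and 3.50 for CXCL3. HSPA1A differed by 3.73, BEST1 by 3.26 and TRIML2 by 3.50. Among genes averaging at least 5 CPM over the groups compared, the 6 most negative differences included that of PHGDH, given above. The others were -2.81 for CAVIN2, -2.37 for CPED1, -2.35 for DENND2A, -2.68 for SLCO4A1-AS1 and -3.05 for ENSG00000254951. DENND2A stood at 0.903–1.54 CPM in sh-IGFBP6 vehicle and 28.3–35.4 CPM in sh-LUC vehicle, SLCO4A1-AS1 at 0.771–1.23 and 15.9–19.1 CPM, and ENSG00000254951 at 0.301–1.97 CPM in sh-IGFBP6 vehicle. These 3 therefore rest on few counts in sh-IGFBP6 and reach the limit of 5 CPM only through sh-LUC.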

How the results depend on the processing

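The count of genes changed by DHA was 5202 and ran from 4268 to 4652 with a library of the compared groups left out. It was 3792 with DESeq2, 4324 with no filter, 5211 with upper quartile factors and 2579 with library size alone, and 3780 of the DESeq2 calls and 2572 of the library size calls were shared with it. Library size alone without erastin replicate 3 called 5427 genes. The count of changes of at least 2-fold, 780, was 446 with a stricter filter, which tests fewer genes. Responses that differed between lines numbered 3124, and 2068 with DESeq2. The count was 1041 with library size alone and 3654 when erastin replicate 3 was also left out. It ran from 2640 to 3063 with a library of the compared groups left out, and was 3179 without erastin replicate 3. The count for DHA against erastin, 3928, was 1541 with library size alone and 2422 with DESeq2, and ran from 2592 to 3874 with a library left out, the lowest without erastin replicate 1. With library size alone and erastin replicate 3 also left out, that count was 3846. Where the construction of the alternative does not show it, the cause was not tested.

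The replicate numbers shared by the groups did not pair the libraries: deviations of same-numbered vehicle and DHA libraries correlated at -0.0115, 0.00765 and 0.00871 across genes. A fit with the number as a block called 5304 genes for DHA, 3221 for the difference between lines and 3940 for DHA against erastin.

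Over all alternatives, the values of named genes stayed on their side of the threshold in 3692 cases, lost the call in 114, gained one in 7 and reversed in 0. Fewer of the low genes were called: 14.2% of genes up to 4.72 CPM, against 53.8% of those above 61.6 CPM. With 3 libraries a group and 1.5-fold changes, the simulation missed some true changes, so a gene with no call is not shown to be unchanged.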

Other observations

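Some gene groups outside the report's main themes were also read in sh-IGFBP6 cells after DHA. Of 16 host genes of small nucleolar RNAs 11 rose and none fell, for example SNHG17 (0.53 ± 0.07), ZFAS1 (0.63 ± 0.10), SNHG3 (0.41 ± 0.06) and GAS5 (0.35 ± 0.07), although only 1 rose with library size alone and 7 without vehicle replicate 2. Of 18 SR protein and CLK kinase genes 5 rose and none fell, 27.8% called beside 34.2% of all genes, and with library size alone 2 rose. CLK1, a kinase of splicing factors, had a log2 fold change of 0.50 ± 0.09 and RSRP1 one of 0.57 ± 0.10. Of 23 genes of polyunsaturated acyl-CoA and phospholipid handling 6 rose and 5 fell, against 1 and 2 with library size alone and 5 and 3 with DESeq2. Log2 fold changes were, for ACSL3, -0.48 ± 0.06, for ACSL5 0.40 ± 0.07 and for LPCAT4, a lysophospholipid acyltransferase, -0.33 ± 0.08, and library size alone ended the calls of ACSL3 (adjusted p = 0.0544) and ACSL5 (adjusted p = 0.255). Both calls held when erastin replicate 3 was also left out.

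Genes that rose and genes that fell differed in composition. The median GC content of the gene's exons was 50.05% among those that rose, 45.6% among those that fell and 47.9% over all tested genes. Protein-coding genes made up 82.3% of tested genes, 71.3% of those that rose at least 2-fold and 59% of those that fell at least 2-fold. These are descriptions of the called sets, and no test was made of them.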
